A study of Homo sapiens with 3 samples.

Results

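The enzymes that make deoxythymidine nucleotides and the other building blocks of DNA were examined in HT29 cells, an established human colorectal cancer line, after treatment with a linderapyrone derivative. The 9 genes were those whose symbol in the annotation of the array platform was TYMS, RRM1, RRM2, RRM2B, TK1, DUT, DTYMK, DCK or CTPS1, out of 18639 genes on the array. They were measured by 10 probes, 2 of them for DTYMK and 1 for each of the other 8 genes. All 9 genes were detected on all 3 arrays. The study set cells given the derivative at 5 or 20 µM for 24 h against cells given DMSO, the solvent, and asked which genes were expressed differently. There was 1 array of total RNA for each of DMSO, 5 µM and 20 µM, so no difference could be tested, the variation between cultures is unknown, and precision is limited by having 3 arrays. The doses are given here as in the treatment labels and descriptions, in µM; the titles of the samples write mM.

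DNA synthesis needs its deoxynucleotides in balanced supply. Ribonucleotide reductase makes them from ribonucleotides, thymidylate synthase adds the methyl group that turns deoxyuridylate into thymidylate, and kinases carry the products up to the triphosphates. Salvage kinases feed in nucleosides from outside the pathway. Many of these genes are transcribed chiefly as cells enter and pass S phase, and thymidylate synthase is the target of fluorouracil, a standard drug against colorectal cancer.

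The median spot signal of the gene probes lay between 107 and 117 on the 3 arrays, and the detection threshold, the mean plus 2 SD of the blank and negative control spots, between 79.4 and 82.5. All 9 measured markers of colon epithelium were detected on each array, and 7 of them were more than 2 times above the threshold. Of 9 measured markers of other cells, 5 were detected on each array and 0 exceeded 2 times the threshold. Of the markers of other cells, the brightest reached 1.80 times the threshold in DMSO cells, 1.74 times at 5 µM and 1.68 times at 20 µM. Where a gene had 2 probes, their disagreement gave a measure of technical error. A single log2 ratio had an SD of 0.15 for 20 µM against DMSO and 0.11 for 5 µM against DMSO. For 20 against 5 µM the SD was 0.12. Over bright pairs alone it was 0.15, 0.15 and 0.12. This technical SD leaves out the variation between cultures. Both probes of a gene lie on the same arrays, so it also leaves out errors that a whole array shares, such as those of its scaling. Normalized signals contain an added offset of 50, so the ratios of dim genes are drawn towards 0.

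At 20 µM, 7 of the 9 enzymes had lower signals than in DMSO, with TYMS, DTYMK and RRM1 at least 1.5-fold lower. RRM2, TK1 and DUT were lower by smaller amounts, DCK was slightly lower, and CTPS1 and RRM2B lay near their DMSO level. The median log2 ratio of the 9 was -0.49, against 0.0071 over the 16062 genes detected on both arrays. Of all those genes, 47.1% had ratios below 0, 1.84% were at least 1.5-fold lower and 1.94% at least 1.5-fold higher. Of the enzymes, 3 were at least 1.5-fold lower and 0 at least 1.5-fold higher. Brighter genes passed the lower mark more often. Among 3717 genes with a normalized DMSO signal of at least 300, which include 8 of the enzymes, 5.35% were at least 1.5-fold lower. That limit was set after the values were seen. In bulk RNA, fewer cells that express a gene and less RNA per cell cannot be told apart.

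**Figure D1:**
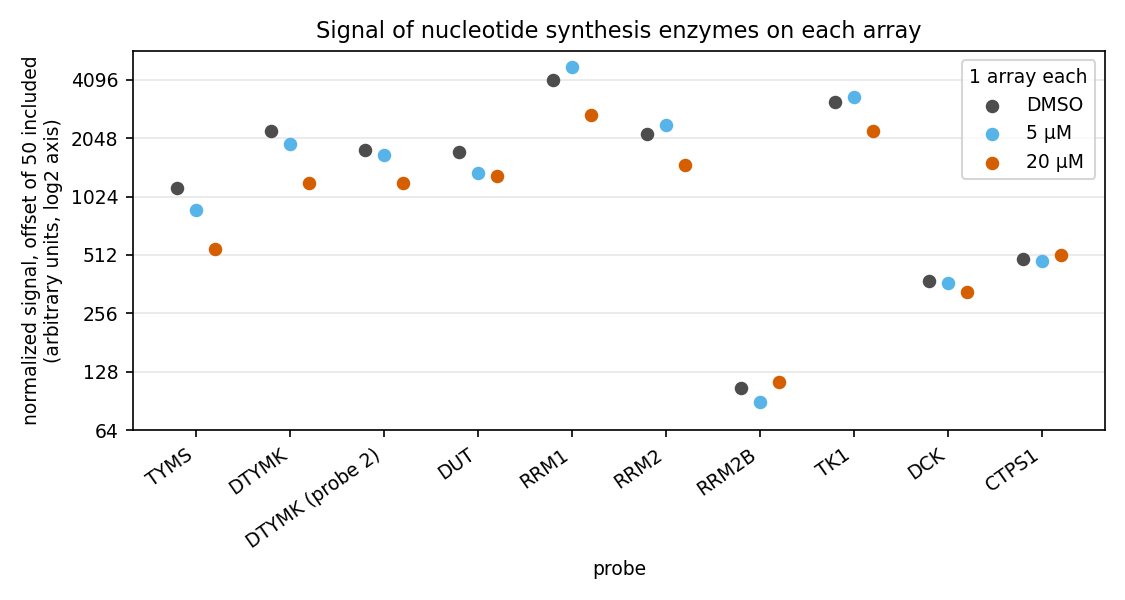
Normalized signal (log2 axis, arbitrary units, offset of 50 included) of each probe on the DMSO, 5 µM and 20 µM arrays; each point is 1 array, and brightness compares arrays within a probe, not probes with each other. TYMS stood at 1136 in DMSO cells, 868 at 5 µM and 548 at 20 µM, while CTPS1 stayed between 479 and 514.

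Thymidylate synthase, TYMS, stood lowest relative to DMSO. Its normalized signal was 1136 in DMSO cells, 868 at 5 µM and 548 at 20 µM, a stepwise order with dose. The spot signals before normalization were 1310, 800 and 569, and the authors' table lists 583, 419 and 262 in the same order of arrays. The log2 ratio was -1.05 for 20 µM against DMSO, or 2.07-fold lower, and TYMS was the 1 enzyme at least 2-fold lower, a size reached by 0.324% of all detected genes. Of the 16062 genes, 39 had a lower ratio. For 5 µM against DMSO the log2 ratio was -0.39, lower than that of 99.1% of 16075 genes, and for 20 against 5 µM it was -0.66. All of these ratios were larger than the technical SD of their comparison. With the scanner's background column subtracted, spots at or below that column were set to a common floor. TYMS then stood at -5.00 at both doses against DMSO and at 0 between the doses. Such equal values are what the floor gives, so neither the size of the ratio nor a dose order can be read from them.

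In RefSeq (build GRCh38.p14), TYMS lies on chromosome 18 on the plus strand, with its start at position 657653. The 250 bases before the start, chr18:657403-657652, are shown because TYMS had the lowest ratio among the enzymes. Capitals mark the 1 match in it to the E2F motifs TTTGGCGC, TTTCCCGC, TTTCGCGC or TTTGCCGC on either strand; E2F factors drive many genes of S phase.
TYMS: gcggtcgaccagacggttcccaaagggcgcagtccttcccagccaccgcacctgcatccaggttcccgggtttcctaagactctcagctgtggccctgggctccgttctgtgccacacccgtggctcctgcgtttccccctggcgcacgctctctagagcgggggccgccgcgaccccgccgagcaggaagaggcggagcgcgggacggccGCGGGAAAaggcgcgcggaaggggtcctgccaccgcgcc
The match is TTTCCCGC read on the other strand, and begins 39 bases before the start. Of 35116 promoter windows of 300 bases, 250 before and 50 after a start, 3.31% held 1 of these E2F motifs. A match of letters does not show that a factor binds there.

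DTYMK, thymidylate kinase, takes thymidylate on to the diphosphate. Its first probe gave normalized signals of 2219 in DMSO cells, 1904 at 5 µM and 1205 at 20 µM, again in stepwise order. The second probe gave 1787, 1679 and 1199, in the same order. The log2 ratios for 20 µM against DMSO were -0.88 and -0.58 on these probes, 1.84-fold and 1.49-fold lower, so the second fell just short of the 1.5-fold mark. They differed by 0.31, where the technical SD of such a difference is 0.21. For 5 µM against DMSO the ratios were -0.22 and -0.090, and the second lay within the technical SD. Subtracting the scanner's background column, which follows the signal of the spot itself, turned DTYMK to 0.74 for 20 µM against DMSO.

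DUT encodes the enzyme that splits dUTP, which keeps uracil out of DNA and yields the substrate of thymidylate synthase. The array without derivative gave a normalized signal of 1727 for DUT, that of 5 µM 1351 and that of 20 µM 1303. The log2 ratio was -0.41 for 20 µM against DMSO and -0.35 for 5 µM against DMSO. At 5 µM only 1.26% of all genes had a lower ratio. Between the doses the ratio was -0.053, under the technical SD, so the 5 and 20 µM arrays were close to each other and both below DMSO. Under median scaling the ratio of 20 against 5 µM was 0.056.

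TK1 encodes the cytosolic thymidine kinase, which salvages thymidine in dividing cells. TK1 had normalized signals of 3124 in DMSO cells, 3329 at 5 µM and 2231 at 20 µM. The log2 ratio was -0.49 for 20 µM against DMSO, 1.40-fold lower, and -0.58 for 20 against 5 µM. At 5 µM the ratio to DMSO was 0.092, within the technical SD. The 20 µM array alone was lower after quantile normalization.

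Ribonucleotide reductase has a large catalytic subunit, RRM1, and a small subunit that holds the radical, RRM2 in S phase or its p53-inducible relative RRM2B. RRM1 had normalized signals of 4069 in DMSO cells, 4724 at 5 µM and 2689 at 20 µM. RRM2 had 2157, 2384 and 1495 on the same arrays. Both subunits were lowest at 20 µM and highest at 5 µM after quantile normalization, although under median scaling 5 µM lay slightly below DMSO for both. Before normalization the spot signals at 5 µM were also below DMSO, 4216 against 4716 for RRM1 and 2133 against 2462 for RRM2. The RRM2 ratio of 0.14 for 5 µM against DMSO was within the technical SD of bright pairs, 0.15, though not that of all pairs, 0.11. For 20 µM against DMSO the log2 ratio was -0.60 for RRM1, 1.51-fold lower and just past the 1.5-fold mark, and -0.53 for RRM2, 1.44-fold lower and just short of it. For 20 against 5 µM the ratios were -0.81 for RRM1, lower than all but 35 of 16036 genes, and -0.67 for RRM2.

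RRM2B was the dimmest enzyme relative to its detection threshold, at 1.69 times the threshold in DMSO cells, 1.39 times at 5 µM and 1.72 times at 20 µM. RRM2B had normalized signals of 106 in DMSO cells, 89.9 at 5 µM and 114 at 20 µM. The log2 ratio of 0.11 for 20 µM against DMSO was within the technical SD, and that for 5 µM against DMSO was -0.24. In the authors' table, which has no offset, the 5 µM ratio was -0.55. HT29 cells carry a mutant p53.

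DCK, deoxycytidine kinase, salvages deoxycytidine and purine deoxynucleosides. The normalized signal of DCK was 376 in DMSO cells, 366 at 5 µM and 331 at 20 µM, with log2 ratios of -0.18 for 20 µM against DMSO and -0.037 for 5 µM against DMSO. The first was slightly larger than the technical SD and the second was within it. CTPS1, CTP synthase, makes the cytidine nucleotides from UTP for both RNA and DNA. CTPS1 gave 486 in DMSO cells, 479 at 5 µM and 514 at 20 µM, and its ratios of 0.080 at 20 µM and -0.022 at 5 µM were within the technical SD. Under median scaling CTPS1 stood at -0.034 at 20 µM.

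**Figure D2:**
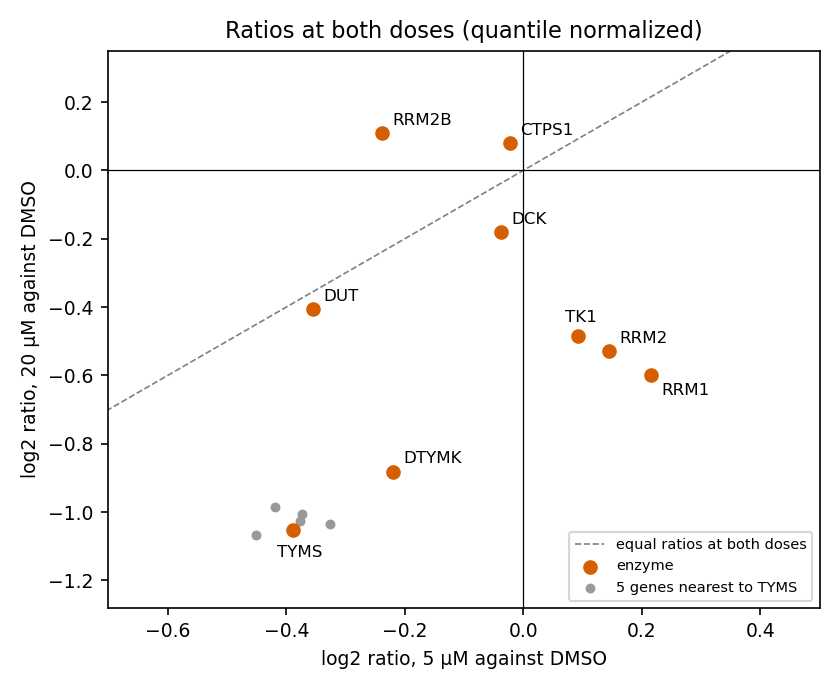
Log2 ratio to DMSO at 5 µM (x axis) against that at 20 µM (y axis) for the 9 enzymes (orange) and the 5 genes nearest to TYMS (grey), with a dashed line of equal ratios; both axes share the DMSO array. TYMS and DTYMK sit low on both axes, DUT lies near the dashed line, and RRM1, RRM2 and TK1 are right of 0 at 5 µM, where median scaling turns their sign, and at -0.60, -0.53 and -0.49 at 20 µM.

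At 5 µM, 6 of the 9 had ratios below 0, beside 47.9% of the 16075 genes detected on both arrays, and 0 were at least 1.5-fold apart either way, beside 0.0871% of all genes lower and 0.386% higher. At least 2-fold lower were 0 of the 9, beside 0.00622% of all genes. The median was -0.037. For 20 against 5 µM, 7 of the 9 were below 0, beside 50.4% of 16036 genes. The median there was -0.58. RRM1, RRM2, TYMS and DTYMK were at least 1.5-fold lower at 20 than at 5 µM, 4 of 9 beside 0.886% of all genes, and 0 were at least 1.5-fold higher, beside 0.917%. Among the 3717 genes with a normalized DMSO signal of at least 300, 2.85% were at least 1.5-fold lower. Under median scaling RRM1 alone of the enzymes passed at -0.70, with TYMS at -0.56, RRM2 at -0.55 and DTYMK at -0.54 short of the mark. The second DTYMK probe, at -0.49, did not pass it under quantile normalization, and 3 enzymes passed with the mean of all probes. At least 2-fold lower were 0 of the 9, beside 0.0935% of all genes. The comparisons at 5 and at 20 µM share the DMSO array, and those of 20 µM share the 20 µM array.

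At 5 µM the sign of several enzymes hung on how the arrays were scaled. RRM1 stood at 0.22, RRM2 at 0.14 and TK1 at 0.092 after quantile normalization, at 0.13, 0.078 and 0.025 in the authors' table, but at -0.038, -0.085 and -0.14 when each array was scaled to a common median. TYMS and DUT became -0.60 and -0.61 under median scaling, both past the 1.5-fold mark. The median of the 3717 genes with a normalized DMSO signal of at least 300, a limit set after the values were seen, moved likewise, to -0.22 under median scaling against -0.011 under quantile normalization. Of these genes, 88.4% had ratios below 0 under median scaling, against 52.6% under quantile normalization. At least 1.5-fold lower were 3.26% under median scaling and 0.242% under quantile normalization. Set against that median of bright genes, RRM1 stood 0.23 above it under quantile normalization, 0.22 above it in the authors' table and 0.19 above it under median scaling. DUT stood at -0.34, -0.38 and -0.38 relative to it, and TYMS at -0.38, -0.39 and -0.38. For these 3 enzymes the distance to the bright genes differed little between the scalings. Median scaling moves every gene of an array by the same amount, and the authors' table is a straight line against the spot signal. Taking off the median of bright genes removes such shifts, so this likeness is largely built in. It is no check on the 5 µM ratios. RRM2B is not among the bright genes, and its ratio at 5 µM was -0.24 under quantile normalization, -0.26 under median scaling and -0.55 in the authors' table, the lowest of the enzymes there.

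**Figure D3:**
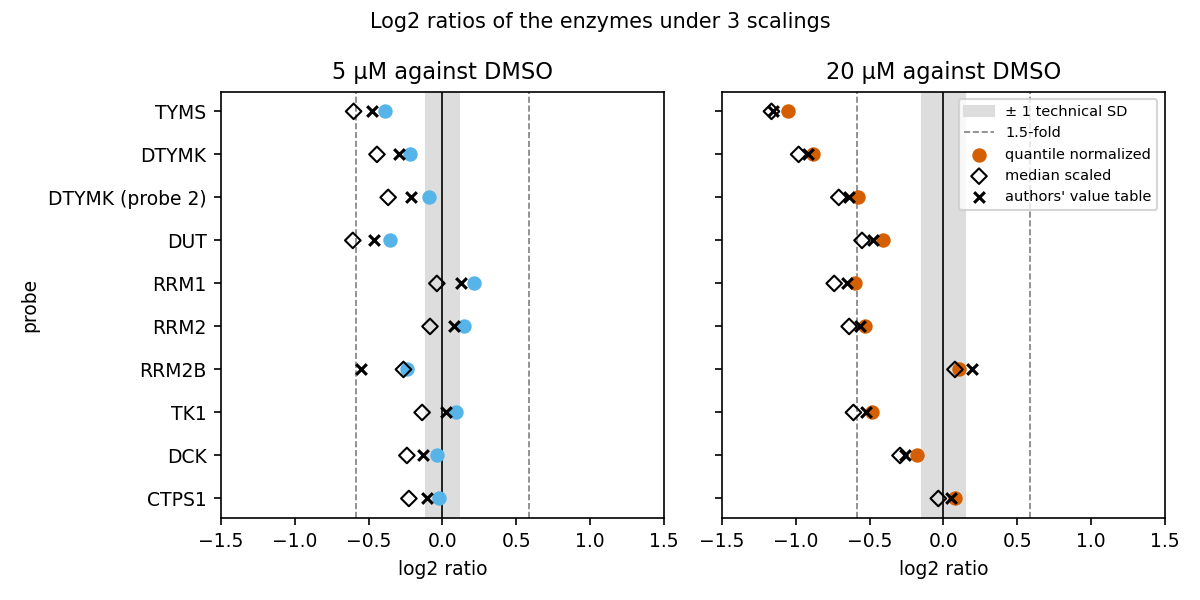
Log2 ratios of each probe for 5 µM against DMSO (left) and 20 µM against DMSO (right) under quantile normalization (filled), median scaling (diamonds) and in the authors' value table (crosses), with the technical SD of a single ratio (grey band) and 1.5-fold (dashed). At 20 µM the TYMS ratios of -1.05, -1.16 and -1.15 lie close together, whereas at 5 µM median scaling puts every enzyme below 0. Median scaling also puts 54.4% of all detected genes below 0 at 5 µM. Of the 3717 genes with a normalized DMSO signal of at least 300, it puts 88.4% there.

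Promoter windows from RefSeq were found for 8 of the 9 enzymes, all but RRM2B, with 14 windows in all because TK1, RRM2, CTPS1 and DUT have several start sites. They are compared because most of these enzymes were lower together at 20 µM. Besides TYMS, E2F motifs were found in DUT and, 22 bases into the transcript, in DCK. The CCAAT box, searched as CCAAT on both strands, was found in RRM1, RRM2, TK1 and DTYMK and occurs in 34.6% of all windows. The CHR element of many genes of G2 and M phase, searched as TTTGAA on both strands, was found in RRM1 and DUT and occurs in 15.2% of all windows. No match of one motif overlapped a match of another. The windows of CTPS1 held 0 of these motifs. Counted as windows, like the shares of all windows, 5 of the 14 held a CCAAT box, 2 the CHR and 3 an E2F motif, so CCAAT and CHR were about as frequent as in all windows.

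Stretches of 30 bases around some of the matches are given for genes with several start sites, in the direction of the gene, with motif letters in capitals. DUT has 2 E2F matches in chr15:48332152-48332181 (plus strand), RRM2 has 3 CCAAT boxes before its downstream start in chr2:10122604-10122633, chr2:10122634-10122663 and chr2:10122661-10122690 (plus strand), and TK1 has 2 in chr17:78187112-78187141 and chr17:78187081-78187110 (minus strand, where the box reads ATTGG).
DUT: ctgGCGGGAAAtttcggtTTTGGCGCgctc
RRM2 box 1: ggcaaggcgcagCCAATgggaagggtcgga
RRM2 box 2: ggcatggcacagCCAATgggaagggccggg
RRM2 box 3: ggggcaccaaagCCAATgggaagggccggg
TK1 box 1: ggccgggcgctgATTGGccccatggcggcg
TK1 box 2: ggccggctcgtgATTGGccagcacgccgtg
Each of these RRM2 boxes is followed by gggaaggg. Another CCAAT box, before the upstream start of RRM2, is not, and it and the 2 CHR matches of DUT are not shown. DTYMK and RRM1 have 1 start site each. Their 250 upstream bases, chr2:241686816-241687065 (minus strand) and chr11:4094435-4094684 (plus strand), are shown as the other genes with a CCAAT box, and the RRM1 stretch also holds its CHR match, TTCAAA, as read on this strand.
DTYMK: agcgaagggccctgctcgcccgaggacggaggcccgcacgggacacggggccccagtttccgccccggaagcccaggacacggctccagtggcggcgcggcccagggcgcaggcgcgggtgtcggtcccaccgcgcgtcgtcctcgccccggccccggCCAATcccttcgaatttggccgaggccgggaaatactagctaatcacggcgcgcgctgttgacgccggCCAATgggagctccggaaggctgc
RRM1: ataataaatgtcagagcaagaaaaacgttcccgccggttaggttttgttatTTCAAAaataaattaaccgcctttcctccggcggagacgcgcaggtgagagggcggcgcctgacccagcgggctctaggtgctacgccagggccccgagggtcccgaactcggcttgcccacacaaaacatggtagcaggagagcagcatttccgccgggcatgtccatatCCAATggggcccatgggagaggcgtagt

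Other genes of nucleotide metabolism were described by lists. In the list of de novo pyrimidine synthesis, all 6 detected genes had ratios below 0, their median was -0.21, and 0 were at least 1.5-fold lower. NME1, a nucleoside diphosphate kinase, stood at -0.33, CAD, which catalyses the first steps of the pathway, at -0.28, and DHODH, the mitochondrial step, at -0.26. The median was -0.34 in the authors' table. CTPS2, the second CTP synthase, stood at -0.17 and CMPK1, a kinase of UMP and CMP, at -0.16. In the list of purine synthesis and salvage, 11 of 14 genes were below 0, with a median of -0.11 and 0 at least 1.5-fold apart. Its members farthest from 0 were APRT, which salvages adenine, at -0.46, PAICS at -0.37, PPAT, the committing enzyme, at 0.31, PRPS1 at -0.28 and HPRT1 at -0.20. Under median scaling the median of the purine list was -0.24, and APRT, at -0.59, passed the 1.5-fold mark.

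The folate cycle supplies the methyl group for thymidylate. Of 7 detected genes, 4 were below 0 and 0 were at least 1.5-fold apart, with a median of -0.077. The cytosolic SHMT1 stood at -0.58, just short of 1.5-fold, MTHFD1 at -0.31 and GGH at -0.30. The 3 genes above 0 encode mitochondrial enzymes, MTHFD2 at 0.54, SHMT2 at 0.29 and MTHFD1L, named after its value was seen, at 0.28 but 0.01 on its other probe. Median scaling put SHMT1 at -0.67, past the 1.5-fold mark, MTHFD2 at 0.44 and SHMT2 at 0.16. In the authors' table the median of the list was -0.20, with 1 gene at least 1.5-fold lower.

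Among 18 genes of nucleoside salvage, transport and deoxynucleotide breakdown, the median at 20 µM was -0.021; 2 were at least 1.5-fold higher than in DMSO and 0 at least 1.5-fold lower. The authors' table gives a median of -0.062, with 1 gene at least 1.5-fold lower. Both of the higher genes are phosphorylases that split pyrimidine nucleosides. UPP1, uridine phosphorylase, had spot signals of 281 in DMSO cells, 294 at 5 µM and 626 at 20 µM and a log2 ratio of 1.38 for 20 µM against DMSO. TYMP, thymidine phosphorylase, had 127, 122 and 195 and a ratio of 0.86. NUDT1, which removes oxidised purine nucleotides, stood at -0.45, NT5M at 0.29 with -0.03 on its other probe, and DPYD, which degrades uracil and thymine, at -0.19. The spot signal of DPYD, 94.3 at 20 µM and 109 in DMSO, was close to the detection threshold.

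The enzymes were then set beside genes of the cell cycle phases. Of 20 genes of S phase, 17 were below 0 at 20 µM. Their median was -0.28, or -0.54 in the authors' table, with 8 at least 1.5-fold lower and 1 at least 1.5-fold higher. UHRF1 stood at -0.85 with -0.82 on its other probe, the sliding clamp PCNA at -0.82, and the helicase subunits MCM6 and MCM3 at -0.76 and -0.71. CDC6, which loads that helicase, was the exception at 1.05, and already stood at 0.93 at 5 µM. Of 10 genes of G2 and M phase, all were below 0, the median was -1.20, and 9 were at least 1.5-fold lower. CCNB1 stood at -1.55, AURKA at -1.44, BUB1 at -1.43, CCNB2 at -1.30 and TOP2A at -1.25. Other probes of CCNB1 and TOP2A gave -1.26 and -1.41. The median of the enzymes was -0.49, or -0.53 in the authors' table. The part of the cell cycle lists in the enzymes' ratios was not tested.

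**Figure D4:**
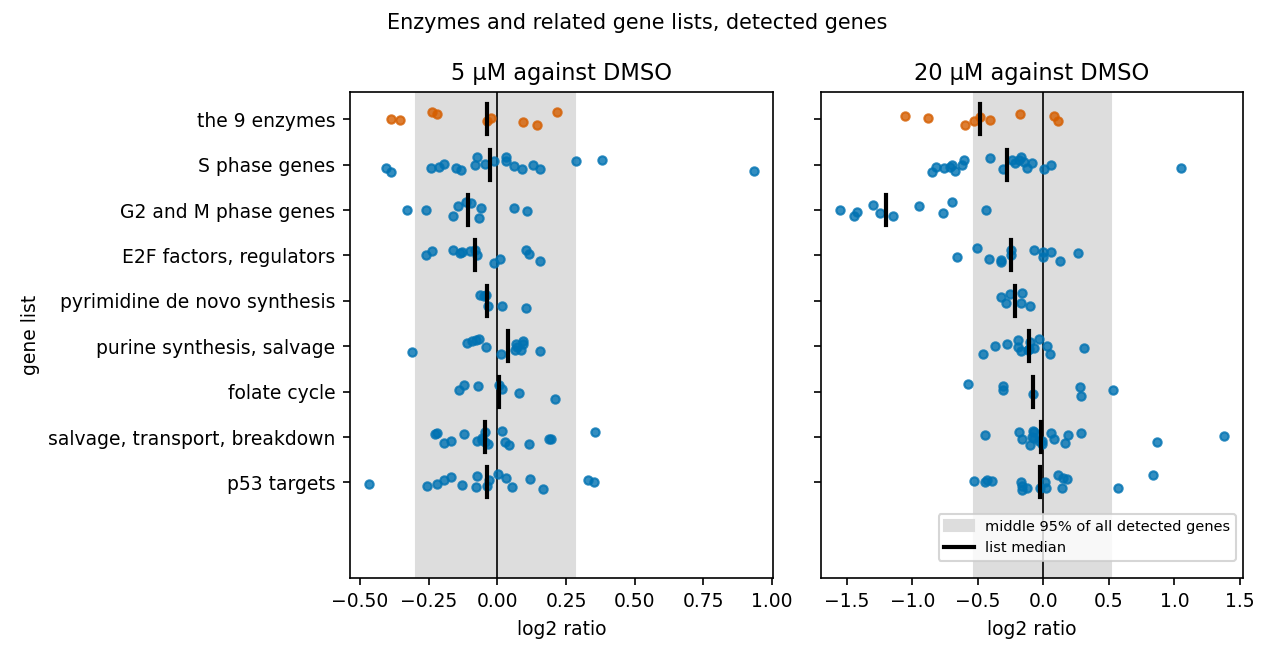
Log2 ratios of the detected genes in each list for 5 µM against DMSO (left) and 20 µM against DMSO (right); points are genes, black bars list medians, and the grey band spans the middle 95% of all detected genes. At 20 µM the medians are -0.49 for the 9 enzymes, -0.28 for S phase and -1.20 for G2 and M phase, while the other lists are at -0.24 or nearer 0.

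Factors that control these enzymes are given next. Of 13 E2F factors and regulators, 10 were below 0, the median was -0.24, and 1 was at least 1.5-fold lower. That gene was TFDP1, the partner with which E2F factors bind DNA, at -0.66. CCNF, which marks RRM2 for degradation, stood at -0.50 with -0.18 on its other probe, the kinase gene WEE1 at -0.42, and E2F2 and E2F8 at -0.32 each. E2F1, chosen after its value was seen, stood at -0.070, with spot signals of 153 at 20 µM and 174 in DMSO. In the authors' table, which has no offset, 5 of the 13 were at least 1.5-fold lower. That table puts 8.18% of the 3717 genes with a normalized DMSO signal of at least 300 past this mark. Its share over all genes was not counted. Several regulators were dim, with spot signals at 20 µM of 108 for E2F2, 108 for CCNF and 127 for E2F8. Without an offset the ratios of dim genes are wider, so the larger count is no sign of a larger change. The p53 targets, among which RRM2B is counted in other cells, had a median of -0.028 over 17 genes. CDKN1A, the CDK inhibitor p21, was the 1 gene at least 1.5-fold higher, at 0.84, with PLK3 at 0.57, FAS at -0.53, DDB2 at -0.44 and BAX at -0.43. Past 1.5-fold in the authors' table were 2 p53 targets above DMSO and 2 below it, with the same limits.

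At 5 µM these lists were near 0 after quantile normalization. Their medians were -0.11 for G2 and M phase, -0.082 for the E2F factors and regulators, -0.028 for S phase, -0.037 for pyrimidine synthesis, 0.0069 for the folate cycle and 0.038 for purine synthesis and salvage. Under median scaling all 6 were lower, at -0.33 for G2 and M phase, -0.16 for the E2F factors and regulators, -0.21 for S phase, -0.19 for pyrimidine synthesis, -0.18 for the folate cycle and -0.19 for purine synthesis and salvage. In S phase, CDC6 was the 1 gene at least 1.5-fold apart at this dose after quantile normalization. Median scaling put PCNA past that mark too, at -0.61, and 1 S phase gene was at least 1.5-fold lower in the authors' table.

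The genes closest to TYMS in their pair of log2 ratios to DMSO were RGS2, PTTG1, LOC105369764, NOX1 and PHF10. The measure was the Euclidean distance over the ratios at 5 and 20 µM, which come from 3 arrays, among 15919 other genes detected on all of them. RGS2, a regulator of G protein signalling, lay 0.029 from TYMS, with ratios of -1.03 at 20 µM and -0.38 at 5 µM. PTTG1, which encodes securin, lay 0.050 away, with ratios of -1.01 and -0.37. NOX1, an NADPH oxidase of the colon, had a ratio of -1.03 at 20 µM, with -0.80 on another probe. Of the other enzymes DTYMK was the nearest, at a distance of 0.24 and rank 55, followed by DUT at 0.65 and rank 593. The DTYMK distance is that of its first probe. Its second probe, with ratios of -0.58 at 20 µM and -0.090 at 5 µM, lay farther from TYMS.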

How the data were processed

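The scanner files hold, per the file headers, the median intensity of every spot at 635 nm with no background taken off, read at 3 gains. The authors also deposited a table of linear intensity values whose median is 25 on each array; each column is a straight line against that array's spot signal after a blank level is taken off, and no source states the steps. Per the labels, RNA was amplified as aminoallyl aRNA and hybridised with a Cy5 label to Toray arrays.

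Spot signals were corrected with normexp in limma 3.58.1 (R 4.3.3; offset 50, all spots), taken to log2 and quantile normalized over 24460 gene probes. Of these probes, 21707 had 1 symbol, 0 several and 2753 none. A probe was detected above the mean plus 2 SD of 480 blank and negative control spots, trimmed by 5% at each end. The probe detected on most arrays, then the brightest, stood for a gene. With 1 array per group there is no test. Genes named were all members, up to 5 per list with the largest absolute ratio at 20 µM, and the 5 nearest to TYMS. Members and lists were chosen with earlier results of these data known. The pipeline was tested on simulated data. Tables used Python 3.11.15 and pandas 2.3.3.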

Additional observations from a re-analysis of the deposited data

How the results depend on the processing

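The enzymes' ratios were recomputed under 8 alternatives. Leaving the scanner's background column aside, TYMS lay between -1.16 and -1.02 for 20 µM against DMSO, DTYMK between -0.98 and -0.73, RRM1 between -0.74 and -0.59, and the median of the enzymes between -0.61 and -0.48. Under median scaling, 5 enzymes were at least 1.5-fold lower at 20 µM than in DMSO, 2 at 5 µM than in DMSO and 1 at 20 than at 5 µM, and the median for 5 µM against DMSO was -0.24. Of the 3717 genes with a normalized DMSO signal of at least 300, that scaling put 9.47%, 3.26% and 1.45% past the same mark in these comparisons. In the authors' table, 1 enzyme, RRM2B at 0.74, was at least 1.5-fold higher at 20 than at 5 µM. The scanner's background column followed the spot signal with Spearman correlations of 0.962 to 0.967 across spots. With it subtracted, 4 enzymes were at least 1.5-fold lower and 2 higher at 20 µM than in DMSO. At 5 µM against DMSO 3 were lower and 1 higher, and at 20 against 5 µM 4 were lower and 1 higher, with a median of -0.28. The share of all genes past the mark was not counted under this setting. Other lists also spread under it, so these counts are not particular to the enzymes. Of 17 p53 targets, 5 were lower and 7 higher at 20 µM than in DMSO, beside 0 and 1 after quantile normalization. In each of the other 2 comparisons, 5 of them were lower and 5 higher. After this subtraction TYMS stood at -5.00 at both doses against DMSO and at 0 for 20 against 5 µM. RRM2B likewise stood at -0.34 at both doses and at 0 between them. Spots at or below the background column were set to a common floor, so such equal values give neither a size nor a dose order. CTPS1 stood at 1.93 for 20 µM against DMSO. This subtraction turned DTYMK to 0.74 for 20 µM against DMSO and 0.17 for 20 against 5 µM. The cause was not tested. No paired analysis was possible because each group had 1 array. Dim probes such as that of RRM2B, under 2 times the detection threshold, are limited by signal over background, and the stricter filter removes it.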
